A study of Mus musculus with 56 samples.

Results

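Gipr, Myh7b, Muc3a, Dysf and Fn3k were the 5 genes with the largest mean decrease among the 170 genes called lower in all 8 comparisons of knockout (KO) with wild-type (WT) T cells, out of 12924 genes tested in both count tables and 47937 genes listed. They were chosen on these decreases, so the KO values below describe the choice and carry no test, while the differences between WT subsets, the neighbouring genes and the related genes did not enter the choice, although the WT libraries themselves did. CD4+ T cells were taken by negative selection, which is meant to remove other cell types, from spleen and lymph nodes of C57BL/6 mice. The labels name CD4+ cells, the study's methods naive CD4+ cells. The cells were activated with antibodies to CD3 and CD28 and IL-2 and analysed at day 4 of polarization. TH1 cells were given IL-12 and IL-2 with anti-IL-4, and TH2 cells IL-4 and IL-2 with anti-IFN-γ. TH17 cells were given IL-6, TGF-β and IL-1 with both antibodies, and Treg cells TGF-β and IL-2 with both antibodies. Odc KO and Dohh KO mice were Odc flox/flox or Dohh flox/flox and carried Cre under the CD4 promoter, which acts from the double-positive stage of thymic development, whereas WT mice were Cre-negative animals of the same crosses. Odc encodes ornithine decarboxylase, which makes putrescine, and Dohh encodes deoxyhypusine hydroxylase, which completes hypusine on the translation factor eIF5A. The Odc table held 16 WT and 15 Odc KO libraries, 4 in each group except 3 in Odc KO TH2, where replicate 1 was not analysed here, and the Dohh table held 12 WT and 12 Dohh KO libraries, 3 in each group.

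Total counts ranged from 5905374 to 9145214 per Odc table library (31 libraries) and from 6572148 to 12576933 per Dohh table library (24 libraries). A library with 0 counts can hide up to 3 counts, or 0.31 to 0.499 CPM (CPM are counts divided by the TMM-scaled library size in M) among Odc libraries and 0.226 to 0.473 CPM among Dohh libraries. Reads had no molecular identifiers, so these floors and the intervals below cover counting error only. Odc1 itself was at 424 to 680 CPM in Odc KO and 357 to 860 CPM in WT libraries. Dohh was at 45.2 to 147.7 CPM in Dohh KO and 31.5 to 45.9 CPM in WT libraries. KO below names a library by its label. Counts over a whole gene need not show the loss of its floxed exons, and whether this applies here was not tested. By subset, Odc1 was lower in Odc KO TH17 cells (476 to 618 against 669.5 to 860 CPM, log2 fold change -0.40, SE 0.16, adjusted p = 0.0416 by edgeR), and its other 3 comparisons did not pass the test. Counts over the whole Dohh gene went against the label: they were higher in Dohh KO TH1 (log2 fold change 1.43, adjusted p = 0.000132 by edgeR), TH2 (1.10, adjusted p = 0.00167) and Treg cells (1.15, adjusted p = 0.000844), and the difference in TH17 cells was 0.41 (adjusted p = 0.189). Dohh was also higher in Odc KO than in WT libraries of the Odc table, at 51.6 to 97.9 against 24.6 to 48.7 CPM without overlap. By immunoblot, the study reports that ODC was deleted in Odc KO T cells and that DOHH deletion lowered hypusinated eIF5A. Cd4 was at 22.1 to 79.7 CPM in Dohh KO against 661 to 968 CPM in WT libraries, and it was lower without overlap in Odc KO TH1 (390 to 656 against 691 to 963 CPM) and TH2 cells (334.5 to 353 against 604 to 742 CPM), overlapping in TH17 and Treg cells. Cd3e was lower in KO without overlap in TH2 cells of both tables (127 to 141 against 178 to 240 CPM for Odc, 118 to 164 against 186 to 226 CPM for Dohh) and overlapped in the other subsets. The summed level of 10 T cell markers was 2043 to 3884 CPM in Dohh KO and 4596 to 5321 CPM in WT libraries, and for Odc it was lower in KO without overlap in TH1 (3381 to 3962 against 4477 to 5213 CPM) and TH2 cells (2408 to 2810 against 4052 to 4592 CPM), overlapping in TH17 and Treg cells. Beside that, 7 markers of CD8 T or NK cells summed to 651 to 2589 CPM in Dohh KO against 55 to 267 CPM in WT, 7 basophil and mast cell markers to 44.5 to 1204 against 1.98 to 23.7 CPM, and 6 myeloid markers to 5.01 to 11450 against 20.9 to 39.6 CPM. Within each subset of either table, the CD8 T or NK cell sum and the basophil and mast cell sum were higher in KO without overlap. Cd8a by itself did not follow the first sum in every subset. It overlapped between KO and WT in Odc TH1, TH2 and TH17 and in Dohh TH1 cells. In Odc TH2 cells its median was lower in KO, at 1.72 against 3.71 CPM. In Odc Treg and in Dohh TH2, TH17 and Treg cells Cd8a was higher in KO without overlap. For Odc the CD8 T or NK cell sum was 394 to 522 against 240 to 375 CPM in TH1, 96.9 to 131 against 44.6 to 92.9 CPM in TH2, 256 to 432.5 against 142 to 182 CPM in TH17 and 507 to 725 against 90.4 to 119.9 CPM in Treg cells. The Odc basophil and mast cell sum was 22.5 to 178 against 12.7 to 16.4 CPM, 28.4 to 63.6 against 3.47 to 6.71 CPM, 54.1 to 327 against 29.2 to 45.8 CPM and 72.8 to 205 against 25.2 to 42.5 CPM in the same order. The myeloid sum did so in Odc Treg (96.9 to 756 against 20.04 to 45.1 CPM) and in Dohh TH17 and Treg cells and overlapped in the other subsets, and 6 B cell markers summed higher in KO without overlap in Odc TH1, TH2 and Treg cells (22.1 to 507 against 6.1 to 109 CPM over these subsets). For Dohh the B cell sum was lower in KO without overlap in TH1 (6.44 to 14.04 against 16.6 to 23.2 CPM), higher without overlap in Treg (11.9 to 25.9 against 8.63 to 11.1 CPM) and overlapping in TH2 and TH17 cells. Summed markers of TH1, TH2 and TH17 cells were highest in the WT libraries of their own subset in both tables. In the Odc table the 4 Treg markers summed to 2933 to 3836 CPM in WT Treg cells. They summed to 2955 to 4578 CPM in the other WT subsets. For Dohh they summed to 1665 to 2116 CPM in WT Treg and to 2388 to 2750 CPM in WT TH1 cells. The Treg sum was thus not highest in the subset it is named for, and its single markers were not compared. Negative selection of CD4+ cells should remove CD8 T, NK, basophil, mast, myeloid and B cells, and the part of these lists in the decreases described here was not tested. In bulk libraries, fewer cells of a type and less RNA per cell cannot be told apart.

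The 5 genes are known from tissues other than T cells. Gipr encodes the receptor for glucose-dependent insulinotropic polypeptide, an incretin hormone of the gut. It is a class B receptor that couples to Gs and raises cyclic AMP, best known in pancreatic β cells. Myh7b encodes a slow-type myosin heavy chain of muscle and carries the gene of miR-499 in an intron. Muc3a encodes a membrane-bound mucin of the intestinal epithelium. Dysf encodes dysferlin, a ferlin with calcium-binding C2 domains that acts in the resealing of the muscle cell membrane. Fn3k encodes fructosamine-3-kinase, which phosphorylates sugars attached to protein lysines so that they detach, a form of repair after glycation.

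The genes lie on 5 different chromosomes of GRCm38, and all are protein coding. Gipr (ENSMUSG00000030406.7) lies on the reverse strand at chr7:19156061-19166127, Myh7b (ENSMUSG00000074652.3) on the forward strand at chr2:155611212-155634307, and Muc3a (ENSMUSG00000094840.5) on the reverse strand at chr5:137208813-137212389. Dysf (ENSMUSG00000033788.15) lies on the forward strand at chr6:84008590-84211060 and Fn3k (ENSMUSG00000025175.12) on the forward strand at chr11:121434913-121450491. Their merged exons span 3.48, 6.63, 1.89, 8.33 and 4.40 kb, in the order Gipr, Myh7b, Muc3a, Dysf, Fn3k. No stretch of 50 bases in their annotated transcripts occurred on the same strand in a transcript of any other gene, which includes Muc3 beside Muc3a and Fn3krp beside Fn3k. Dysf shares 5.49% of its exon bases with antisense genes (Gm33024 and Gm15475) and Myh7b 0.56% with Trpc4ap, and the strand setting of the counting is not given in the sources used here. GENCODE marks the Muc3a locus as affected by an error of the reference genome.

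Promoter windows from RefSeq (GRCm38.p6, 250 bases before to 50 after a start) matched 2 of the 5 genes, Myh7b with 1 start and Dysf with 2. They are shown because these genes fell together in all comparisons, with every E-box (CANNTG, which reads the same on both strands) in capitals. The Myh7b window is chr2:155610993-155611292 and the Dysf windows are chr6:84008348-84008647 and chr6:84019136-84019435, all on the forward strand.
Myh7b promoter: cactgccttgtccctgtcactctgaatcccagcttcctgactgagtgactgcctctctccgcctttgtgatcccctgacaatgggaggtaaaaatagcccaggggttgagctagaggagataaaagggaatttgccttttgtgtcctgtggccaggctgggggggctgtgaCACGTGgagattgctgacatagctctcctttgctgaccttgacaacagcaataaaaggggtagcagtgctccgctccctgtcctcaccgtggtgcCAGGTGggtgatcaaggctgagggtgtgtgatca
Dysf promoter 1: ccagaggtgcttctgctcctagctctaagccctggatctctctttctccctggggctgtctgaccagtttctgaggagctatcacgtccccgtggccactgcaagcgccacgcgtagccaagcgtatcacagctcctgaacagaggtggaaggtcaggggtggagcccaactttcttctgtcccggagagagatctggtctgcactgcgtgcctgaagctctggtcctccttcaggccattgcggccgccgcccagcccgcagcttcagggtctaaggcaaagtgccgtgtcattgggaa
Dysf promoter 2: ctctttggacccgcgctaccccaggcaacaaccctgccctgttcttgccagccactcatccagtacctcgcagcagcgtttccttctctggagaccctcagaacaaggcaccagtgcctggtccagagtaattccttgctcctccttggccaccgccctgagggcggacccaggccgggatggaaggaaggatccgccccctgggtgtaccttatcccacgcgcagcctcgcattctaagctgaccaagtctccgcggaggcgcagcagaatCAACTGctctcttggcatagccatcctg
The Myh7b window held 2 E-boxes, Dysf promoter 1 held 0 and Dysf promoter 2 held 1, and 72.3% of 32851 RefSeq promoter windows of this length hold at least 1. A GATA motif (AGATAA, both strands) was found once in the Myh7b window, where 11.2% of all windows hold it. The letters of a TATA box (TATAAA, in 13.6% of all windows), AP-1 (TGANTCA, 7.81%), STAT (TTCNNNGAA, 8.3%), ETS (GGAAGT, 23.8%), RUNX (TGTGGT, 16.8%) and NFAT (GGAAAA, 23.4%) motifs were in none of the 3 windows on either strand. No site of 1 motif overlapped a site of another. The Myh7b window held 4 CpG dinucleotides and the Dysf windows held 13 and 14, where the median over all windows was 7.

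The hairpin of miR-499 lies between exons 19 and 20 of the 42 exons of Myh7b. Its mature sequences from RefSeq, at chr2:155622893-155622913 and chr2:155622929-155622951 on the strand of Myh7b, are shown with the seed (bases 2 to 8) in capitals, since the hairpin lies inside the transcript of Myh7b.
mmu-miR-499-5p: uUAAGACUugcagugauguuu
mmu-miR-499-3p: gAACAUCAcagcaagucugugcu
The 2 arms have different seeds. The row of its gene held 1 count over all Odc table libraries and 0 over those of Dohh, as an mRNA library does not capture mature miRNAs, so its level was not measured.

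Gipr was the most abundant of the 5 genes in WT cells. At 168 ± 68.6 CPM per kb of exon (SD, n = 4) in TH1 cells of the Odc table it stood at the 98th percentile of the tested genes, against 2.65 to 4.33 CPM per kb for the other 4 genes in the same libraries. In WT cells of the Odc table its level was 586 ± 239 CPM in TH1, 436 ± 136 in TH2, 220.0 ± 91.3 in TH17 and 50.8 ± 36.0 CPM in Treg cells (SD, n = 4 each). In the Dohh table it was 183 ± 29.0 CPM in TH1, 205 ± 14.4 in TH2, 123 ± 15.9 in TH17 and 19.7 ± 7.39 CPM in Treg cells (SD, n = 3 each). TH1 and TH2 cells thus carried the most and Treg cells the least Gipr in both tables, whose libraries were scaled separately. The difference between TH1 and TH2 did not pass the test in either table (log2 fold change TH1 minus TH2 0.44, SE 0.50, adjusted p = 0.592, and -0.13, SE 0.17, adjusted p = 0.594 by edgeR). TH17 exceeded Treg cells by 2.07 (SE 0.53, adjusted p = 0.00541) and 2.63 (SE 0.19, adjusted p = 1.61e-09) on the log2 scale. TH1 exceeded TH17 cells by 1.44 (SE 0.51, adjusted p = 0.0306) in the Odc table, whereas in the Dohh table that difference, 0.60 (SE 0.17, adjusted p = 0.0086), was under the 2-fold threshold of a call. With all 8 groups in the fit, the difference of TH17 from TH1 and from Treg cells was not called in the Odc table (adjusted p = 0.245 and 0.103). With the replicate number as a block, TH2 also exceeded TH17 cells there, by 1.08 (adjusted p = 0.00239).

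In KO cells Gipr kept, as group means, between 0.323% and 17.8% of the mean WT level. In TH1 cells of the Odc table it was at 725, 538, 808.5 and 270.2 CPM in WT replicates 1 to 4 and at 180.3, 1.59, 4.64 and 3.78 CPM in KO replicates 1 to 4, a log2 fold change KO minus WT of -3.63 (SE 1.05). In TH2 cells the WT libraries had 490.4, 475, 541 and 237 CPM and KO replicates 2 to 4 had 4.24, 24.7 and 8.53 CPM, a log2 fold change of -5.12 (SE 1.31). Values in TH17 cells were 275, 237, 282 and 86.4 CPM in WT and 34, 0.92, 3.33 and 1.69 CPM in KO, a log2 fold change of -4.44 (SE 1.14). The KO group of TH1 cells was held up by replicate 1, and the highest KO library stayed below the lowest WT library in each subset. For Treg cells they were 76, 31.8, 85.6 and 9.67 CPM in WT and 2.64, 0.362, 0.129 and 0.521 CPM in KO, a log2 fold change of -5.80 (SE 1.51). For Dohh, TH1 cells had 210.8, 153 and 187 CPM in WT and 1.33, 2.84 and 7.06 CPM in KO, a log2 fold change of -5.60 (SE 0.77). TH2 cells had 216, 188 and 210.2 CPM in WT and 68.4, 37.5 and 3.18 CPM in KO, the smallest decrease of Gipr at -2.49 (SE 0.63), which was not called with only these 2 groups in the fit (-2.51). This group was split, with KO replicates 1 and 2 far above replicate 3. TH17 cells had 123, 107 and 139 CPM in WT and 0.71, 0.482 and 0 CPM in KO, the largest decrease at -8.08 (SE 0.96), from 3831 counts in all to 13. Treg cells had 27.8, 18.2 and 13.2 CPM in WT and 1.66, 0.808 and 0.309 CPM in KO, a log2 fold change of -4.42 (SE 0.85). Without KO replicate 1, the log2 fold change became -7.48 in Odc TH1, -6.84 in Odc TH17, -7.17 in Odc Treg, -3.37 in Dohh TH2 and -5.11 in Dohh Treg cells. Without KO replicate 3 it became -6.09 in Odc TH2 and -6.52 in Dohh TH1 cells.

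**Figure D1:**
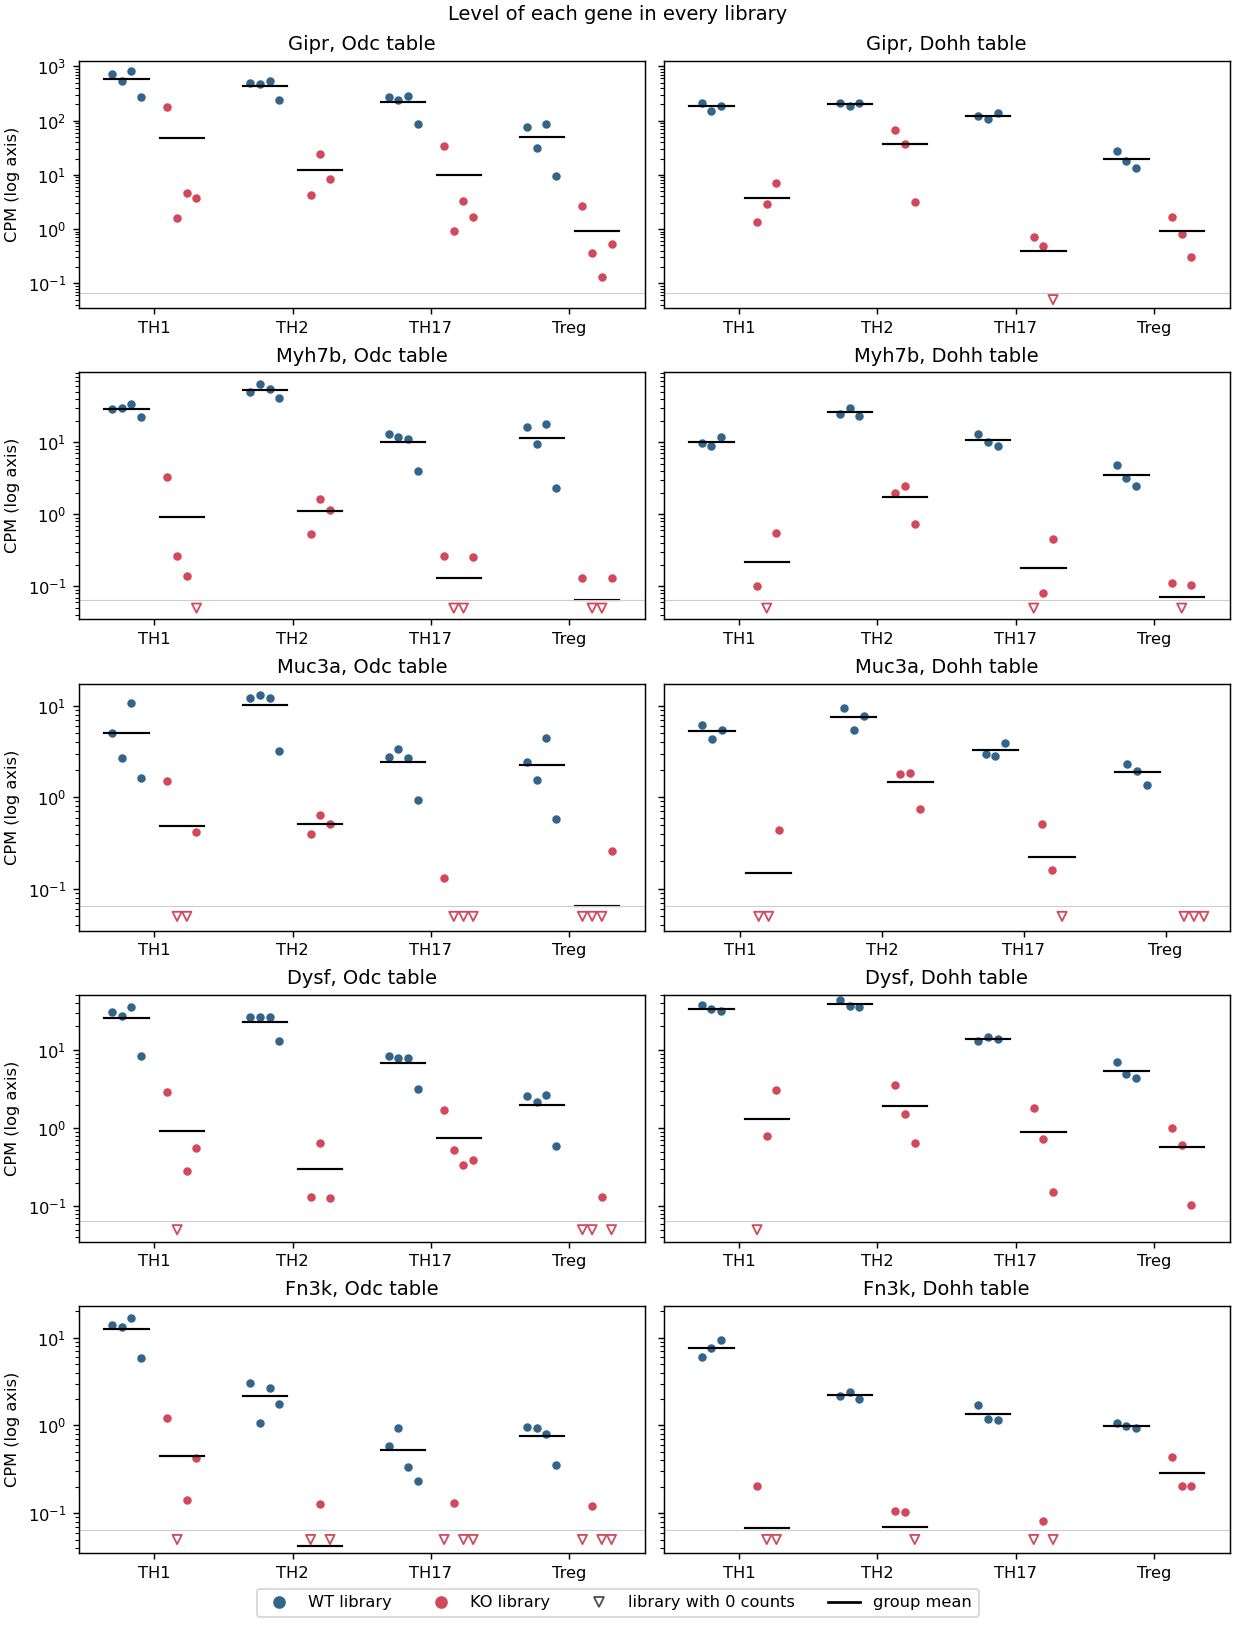
CPM (log axis) of each gene in every library of the Odc table (left) and the Dohh table (right), by subset, with WT libraries in blue, KO libraries in red, replicates drawn from left to right by number, black bars for group means (means below the axis are not drawn) and open triangles for libraries with 0 counts. In all 40 pairs of groups the highest KO library lies below the lowest WT library, WT replicate 4 of the Odc table lies low in 19 of 20 groups, and Odc KO replicate 1 lies high for Gipr at 180.3 CPM in TH1 cells.

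Across the 5 genes, all 40 decreases were called (over 2-fold at an adjusted p below 0.05), where the genes were chosen for this and 1.32% of the genes tested in both tables were called lower in all 8 comparisons. With only the 2 compared groups in the fit, 3 genes were called in Odc TH17, 2 in Odc Treg and 4 each in Dohh TH2 and Treg cells. Without every Dohh WT replicate 1, 4 were called in Dohh Treg cells. In all 40 the KO libraries also lay below the WT libraries without overlap, which held in all 8 comparisons for 473 (3.66%) of the genes tested. By comparison, the share of genes called lower was 11.3% in TH1, 13.6% in TH2, 7.21% in TH17 and 10.1% in Treg cells of the Odc table, and 14.2%, 11.6%, 14.1% and 15.2% for Dohh. The share of genes whose highest KO library lay below the lowest WT library was 21.5%, 30.5%, 19.6% and 20.6% for Odc and 27.0%, 30.5%, 32.1% and 32.3% for Dohh in the same order of subsets. The mean log2 fold change over the 8 comparisons was -5.56 for Myh7b, -4.95 for Gipr, -4.54 for Muc3a, -4.45 for Dysf and -4.40 for Fn3k. The genes just outside the choice were Dntt at -4.38 and Dnm1 at -4.38, followed by Upk3bl at -4.22 and Itga7 at -4.22, so that the last 2 genes inside are hardly apart from the first 2 outside. The value of Muc3a includes Dohh Treg cells, where the KO libraries had 0 counts, and it became -3.96 with that group at its bound, smaller than for Dntt and Dnm1, which had no such group. Upk3bl had 0 counts in 4 KO groups, and its mean became -1.86 with them at their bounds. KO groups with 1 to 3 counts numbered 6 of 8 for Fn3k, 2 each for Muc3a and Myh7b and 1 for Dysf. A prior count of 2 made such decreases smaller, for example from -5.19 to -3.00 for Fn3k in Odc TH2 cells. The order of these means thus depends on how low counts are handled. Dntt encodes the terminal transferase that adds nucleotides at V(D)J junctions in the thymus.

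**Figure D2:**
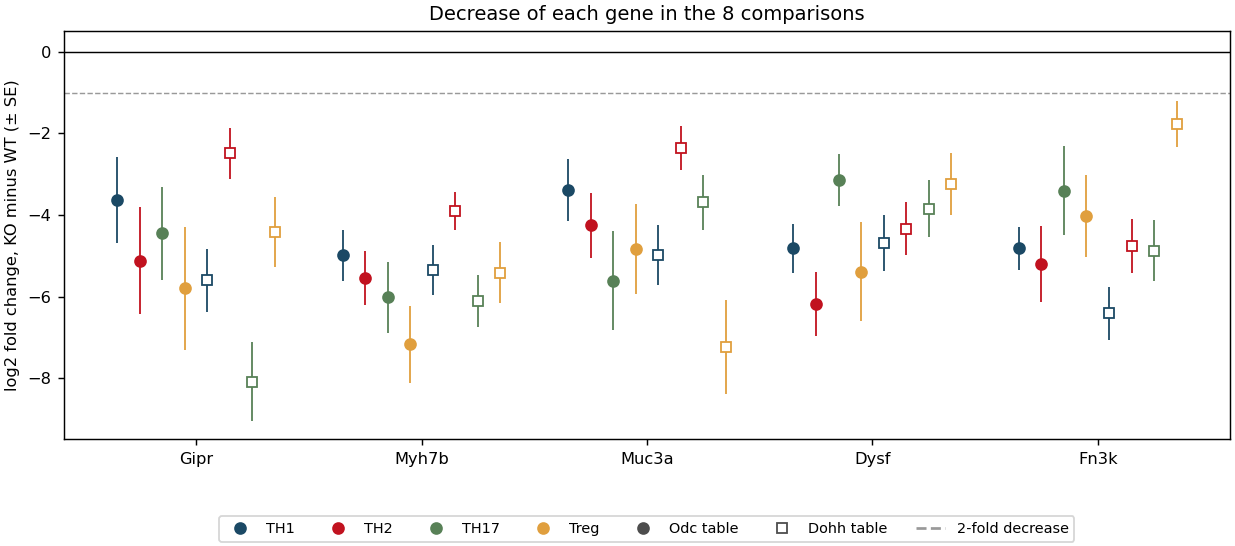
Log2 fold change KO minus WT with its standard error for each gene, in TH1, TH2, TH17 and Treg cells (colours) of the Odc table (filled circles) and the Dohh table (open squares), with the dashed line at a 2-fold decrease. All 40 points lie below that line, from -1.77 for Fn3k in Dohh Treg cells to -8.08 for Gipr in Dohh TH17 cells, and that of Muc3a in Dohh Treg cells is a fitted value over KO libraries with 0 counts.

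Myh7b was highest in WT TH2 cells in both tables. In the Odc table its level was 52.8 ± 10.0 CPM in TH2, 28.7 ± 4.68 in TH1, 11.4 ± 7.02 in Treg and 9.96 ± 4.12 CPM in TH17 cells (SD, n = 4 each), and 26 ± 3.83, 10.1 ± 1.4, 3.48 ± 1.21 and 10.7 ± 2.05 CPM in the same order for Dohh (SD, n = 3 each). In the Dohh table TH2 exceeded TH1 cells by 1.34 (SE 0.19, adjusted p = 1.38e-05) and TH17 cells by 1.26 (SE 0.19, adjusted p = 1.08e-05) on the log2 scale. In the Odc table TH2 exceeded TH17 cells by 2.42 (SE 0.41, adjusted p = 0.000118). Every TH2 library of that table (41.3 to 65.2 CPM) also lay above every TH1 library (22.5 to 33.8 CPM), but this difference did not pass the test (0.87, SE 0.38, adjusted p = 0.117). Treg and TH17 cells did not differ beyond their spread in the Odc table (adjusted p = 0.698), nor TH1 and TH17 cells in the Dohh table (adjusted p = 0.796).

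In KO cells Myh7b kept, as group means, at most 6.65% of the mean WT level. In TH1 cells of the Odc table it was at 28.9, 29.7, 33.8 and 22.5 CPM in WT replicates 1 to 4 and 3.32, 0.265, 0.141 and 0 CPM in KO, a log2 fold change of -4.99 (SE 0.62). TH2 cells had 49.95, 65.2, 54.8 and 41.3 CPM in WT and 0.53, 1.66 and 1.16 CPM in KO replicates 2 to 4, a log2 fold change of -5.54 (SE 0.66). For TH17 cells the values were 13.2, 11.7, 11 and 3.95 CPM in WT and 0.266, 0, 0 and 0.26 CPM in KO, a log2 fold change of -6.01 (SE 0.87) on 4 KO counts in all. Nearly all of the Myh7b left in Odc KO TH1 cells came from replicate 1. Treg cells had 16.1, 9.61, 17.7 and 2.33 CPM in WT and 0.132, 0, 0 and 0.13 CPM in KO, 2 counts against 419, a ratio of 180.0 (95% exact counting interval 49.5 to 1491). Among Dohh libraries, those of TH1 cells had 9.69, 8.97 and 11.7 CPM in WT and 0.102, 0 and 0.552 CPM in KO, a log2 fold change of -5.35 (SE 0.61). TH2 libraries had 24.8, 30.2 and 22.9 CPM in WT and 1.99, 2.44 and 0.742 CPM in KO, a log2 fold change of -3.90 (SE 0.47). Of the 4 Dohh KO groups, TH2 kept the most. TH17 libraries had 12.9, 10.2 and 8.89 CPM in WT and 0, 0.0804 and 0.453 CPM in KO, a log2 fold change of -6.11 (SE 0.64). Treg libraries had 4.82, 3.16 and 2.47 CPM in WT and 0.11, 0 and 0.103 CPM in KO, 2 counts against 119, a ratio of 51.3 (interval 13.9 to 428). Without KO replicate 1, 3 counts were left in Odc KO TH1 cells, a ratio of 209 (interval 71.3 to 1016). Without KO replicate 3, 1 count was left in Dohh KO TH1 cells, a ratio of 162 (interval 28.8 to 6402), and 1 count in TH17 cells, a ratio of 244 (interval 43.45 to 9653).

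Muc3a was also highest in WT TH2 cells. Its level in the Odc table was 10.1 ± 4.61 CPM in TH2, 5.00 ± 4.00 in TH1, 2.46 ± 1.06 in TH17 and 2.27 ± 1.67 CPM in Treg cells (SD, n = 4 each), and 7.54 ± 1.95, 5.33 ± 0.974, 3.25 ± 0.594 and 1.88 ± 0.488 CPM in the same order for Dohh (SD, n = 3 each). Neighbours in that order did not pass the test of a call in either table, whereas TH2 exceeded TH17 cells by 2.06 (SE 0.58, adjusted p = 0.00701) and 1.23 (SE 0.25, adjusted p = 0.000434) on the log2 scale, and Treg cells by 2.14 (SE 0.58, adjusted p = 0.0049) and 1.99 (SE 0.27, adjusted p = 2.87e-06). With all 8 groups in the fit, TH2 and TH17 cells were not called as different for Dohh (adjusted p = 0.0899). With the replicate number as a block, the differences of TH1 from TH2 and from Treg cells were also called in the Odc table. Its test over the 4 WT subsets of that table (adjusted p = 0.00655) was lost without every WT replicate 1 (adjusted p = 0.0807) and without every WT replicate 2 (adjusted p = 0.0703), and ranged from 2.57e-06 to 0.0807 over all alternatives.

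In KO cells Muc3a ranged, by group, from 0 counts to a mean of 19.3% of the mean WT level. In TH1 cells of the Odc table, WT libraries had 5.06, 2.7, 10.6 and 1.63 CPM and KO libraries 1.51, 0, 0 and 0.42 CPM, a log2 fold change of -3.39 (SE 0.76). WT replicate 4 and KO replicate 1 nearly met there, at 11 and 10 counts. TH2 cells had 12.2, 12.9, 12 and 3.21 CPM in WT and 0.398, 0.637 and 0.517 CPM in KO replicates 2 to 4, a log2 fold change of -4.25 (SE 0.80). TH17 cells had 2.78, 3.39, 2.71 and 0.93 CPM in WT and 0.133, 0, 0 and 0 CPM in KO, 1 count against 85, a ratio of 70.8 (interval 12.4 to 2828). Treg cells had 2.43, 1.55, 4.49 and 0.583 CPM in WT and 0, 0, 0 and 0.261 CPM in KO, 2 counts against 82, a ratio of 35.2 (interval 9.45 to 296). These 2 groups are at or near the detection floor. TH1 cells of the Dohh table had 6.21, 4.28 and 5.5 CPM in WT and 0, 0 and 0.441 CPM in KO, a log2 fold change of -4.98 (SE 0.73) on 4 KO counts. TH2 cells had 9.38, 5.5 and 7.74 CPM in WT and 1.78, 1.83 and 0.742 CPM in KO, a log2 fold change of -2.37 (SE 0.54). TH17 cells had 2.99, 2.83 and 3.93 CPM in WT and 0.507, 0.161 and 0 CPM in KO, a log2 fold change of -3.69 (SE 0.68). As with Gipr and Myh7b, the Dohh KO TH2 group kept the largest mean share of the WT level among the Dohh KO groups, though KO replicate 3 of that group kept less than single libraries of other subsets. In Treg cells the WT libraries had 2.33, 1.94 and 1.36 CPM and all 3 KO libraries had 0 counts, so that Muc3a was at least 5.98-fold lower at a floor of 3 counts per library. In Odc TH1 cells the log2 fold change became -2.73 without WT replicate 3, and 3 counts were left without KO replicate 1, a ratio of 36.4 (interval 12.2 to 178.5). All KO libraries left had 0 counts in Odc TH17 cells without KO replicate 1, in Odc Treg cells without KO replicate 4 and in Dohh TH1 cells without KO replicate 3, so that Muc3a was at least 5.74-fold, 5.93-fold and 13.7-fold lower there at the same floor. The log2 fold change in Dohh TH1 cells was -4.32 without KO replicate 1, and 2 counts were left in Dohh KO TH17 cells without KO replicate 1, a ratio of 30.45 (interval 8.21 to 254.9).

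Dysf followed the same order over the WT subsets as Gipr. In the Odc table it was at 25.6 ± 11.9 CPM in TH1, 23 ± 6.69 in TH2, 6.84 ± 2.48 in TH17 and 1.99 ± 0.958 CPM in Treg cells (SD, n = 4 each), and in the Dohh table at 33.9 ± 3.19, 38.7 ± 4.76, 13.8 ± 0.754 and 5.42 ± 1.34 CPM (SD, n = 3 each). TH1 and TH2 cells did not differ beyond their spread (log2 fold change TH1 minus TH2 0.16, SE 0.38, adjusted p = 0.804, and -0.17, SE 0.14, adjusted p = 0.398). TH1 exceeded TH17 cells by 1.93 (SE 0.41, adjusted p = 0.0011) and 1.32 (SE 0.15, adjusted p = 3.8e-07), and TH17 exceeded Treg cells by 1.74 (SE 0.49, adjusted p = 0.0106) and 1.33 (SE 0.17, adjusted p = 4.11e-06) on the log2 scale. With all 8 groups in the fit, the differences of TH17 from TH1, TH2 and Treg cells were not called for Dohh (adjusted p = 0.102, 0.055 and 0.169).

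In KO cells Dysf kept, as group means, between 1.3% and 10.9% of the mean WT level. In TH1 cells of the Odc table WT libraries had 30.9, 27.2, 35.7 and 8.44 CPM and KO libraries 2.87, 0, 0.281 and 0.56 CPM, a log2 fold change of -4.82 (SE 0.60). TH2 cells had 26.3, 26.4, 26.3 and 13 CPM in WT and 0.133, 0.637 and 0.129 CPM in KO replicates 2 to 4, a log2 fold change of -6.18 (SE 0.78). WT replicates 1 to 3 were all but equal in that group and replicate 4 stood below them. TH17 cells had 8.35, 7.96, 7.91 and 3.14 CPM in WT and 1.73, 0.5259, 0.333 and 0.39 CPM in KO, a log2 fold change of -3.14 (SE 0.63). Treg cells had 2.54, 2.17, 2.65 and 0.583 CPM in WT and 0, 0, 0.129 and 0 CPM in KO, 1 count against 73, a ratio of 62.7 (interval 10.9 to 2511). The Dohh TH1 libraries had 37.4, 33.3 and 31.1 CPM in WT and 0, 0.789 and 3.09 CPM in KO, a log2 fold change of -4.68 (SE 0.69). KO replicate 3 held most of these counts, and in the other Dohh KO subsets replicate 1 held the most. TH2 libraries had 44.1, 36.8 and 35.2 CPM in WT and 3.57, 1.53 and 0.636 CPM in KO, a log2 fold change of -4.33 (SE 0.65). TH17 libraries had 13.2, 14.6 and 13.6 CPM in WT and 1.83, 0.723 and 0.151 CPM in KO, a log2 fold change of -3.84 (SE 0.69). Treg libraries had 6.92, 4.98 and 4.35 CPM in WT and 0.994, 0.606 and 0.103 CPM in KO, a log2 fold change of -3.25 (SE 0.76). Without KO replicate 1 the log2 fold change became -6.47 in Odc TH1, -3.97 in Odc TH17, -4.03 in Dohh TH1, -5.17 in Dohh TH2, -4.74 in Dohh TH17 and -3.88 in Dohh Treg cells. Without KO replicate 3 it became -6.66 in Dohh TH1 cells, 2 counts were left in Odc KO TH2 cells, a ratio of 178.0 (interval 49.1 to 1473), and the Odc KO Treg libraries left had 0 counts, at least 5.18-fold lower at a floor of 3 counts per library.

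Fn3k was highest in WT TH1 cells and the lowest of the 5 genes per kb of exon in the other subsets. In the Odc table it was at 12.4 ± 4.6 CPM in TH1, 2.14 ± 0.901 in TH2, 0.76 ± 0.281 in Treg and 0.522 ± 0.312 CPM in TH17 cells (SD, n = 4 each), and in the Dohh table at 7.69 ± 1.79 CPM in TH1, 2.2 ± 0.213 in TH2, 1.34 ± 0.307 in TH17 and 0.988 ± 0.0595 CPM in Treg cells (SD, n = 3 each). TH1 exceeded TH2 cells by 2.54 (SE 0.36, adjusted p = 5.18e-05) and 1.82 (SE 0.25, adjusted p = 1.03e-05) on the log2 scale. The difference between TH17 and Treg cells did not pass the test in either table (adjusted p = 0.473 and 0.377), although the Dohh TH17 libraries (1.16 to 1.70 CPM) all lay above the Dohh Treg libraries (0.937 to 1.05 CPM). With all 8 groups in the fit, the difference of TH2 from Treg cells was not called for Dohh (1.14, adjusted p = 0.0685). The Odc WT libraries held 40 to 115 counts each in TH1, 8 to 25 in TH2, 3 to 9 in Treg and 2 to 8 in TH17 cells. Fn3k thus passed the filter on low counts in that table through TH1, the subset where it is highest. Its excess in TH1 cells there is not independent of that filter.

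In KO cells Fn3k was at the floor in most libraries. In TH1 cells of the Odc table WT libraries had 14, 13.1, 16.7 and 5.92 CPM and KO libraries 1.21, 0, 0.141 and 0.42 CPM, a log2 fold change of -4.81 (SE 0.53). TH2 cells had 3.06, 1.07, 2.67 and 1.75 CPM in WT and 0, 0.127 and 0 CPM in KO replicates 2 to 4, 1 count against 65, a ratio of 50.1 (interval 8.68 to 2009). TH17 cells had 0.58, 0.936, 0.339 and 0.232 CPM in WT and 0, 0.132, 0 and 0 CPM in KO, 1 count against 18, a ratio of 15.0 (interval 2.37 to 625). The WT libraries themselves are close to the floor there. Treg cells had 0.953, 0.93, 0.806 and 0.35 CPM in WT and 0, 0.12, 0 and 0 CPM in KO, 1 count against 28, a ratio of 24.1 (interval 3.98 to 984). Dohh TH1 cells had 5.96, 7.57 and 9.53 CPM in WT and 0.204, 0 and 0 CPM in KO, 2 counts against 233, a ratio of 94.6 (interval 25.9 to 785). TH2 cells had 2.14, 2.43 and 2.02 CPM in WT and 0.105, 0.102 and 0 CPM in KO, 2 counts against 67, a ratio of 31.6 (interval 8.41 to 266). With 1 or 2 KO counts the size of these ratios depends on the WT level and on single KO counts, and their intervals overlap. TH17 cells had 1.7, 1.17 and 1.16 CPM in WT and 0, 0.0804 and 0 CPM in KO, 1 count against 43, a ratio of 39.7 (interval 6.76 to 1605). Treg cells had 1.05, 0.973 and 0.937 CPM in WT and 0.442, 0.202 and 0.206 CPM in KO, the smallest of the 40 decreases at -1.77 (SE 0.56) on 33 and 8 counts. The log2 fold change became -5.98 in Odc TH1 cells without KO replicate 1, and where 1 library held all the counts of a KO group, the libraries left without it had 0 counts. At a floor of 3 counts per library Fn3k was then at least 5.45-fold lower in Odc TH2, 1.22-fold in Odc TH17, 1.94-fold in Odc Treg, 19.1-fold in Dohh TH1 and 3.54-fold in Dohh TH17 cells.

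All 5 genes differed between the WT subsets in both tables (edgeR F test over 4 subsets, adjusted p from 5.1e-08 for Fn3k to 0.00655 for Muc3a in the Odc table, and from 8.77e-12 for Dysf to 8.06e-06 for Muc3a in the Dohh table). Over all genes tested, 72.6% and 69.6% passed the same test. In the Odc table Fn3k entered this test through its TH1 libraries, as described above. Of the 30 pairs of WT subsets (6 for each gene), 20 were called in each table, against 15.7% and 15.6% of the pairs over all genes. For single pairs the share of genes called was 9.02% and 9.81% between TH1 and TH2, 14.9% and 16.0% between TH1 and TH17, 19.1% and 19.0% between TH1 and Treg, 17.1% and 17.8% between TH2 and TH17, 20.5% and 20.4% between TH2 and Treg, and 13.9% and 10.4% between TH17 and Treg cells, for Odc and Dohh. The level in the highest subset was 4.46 to 23.8 times that in the lowest for Odc and 4.01 to 10.4 times for Dohh. Treg cells were never the highest, and TH2 or TH1 cells always were.

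**Figure D3:**
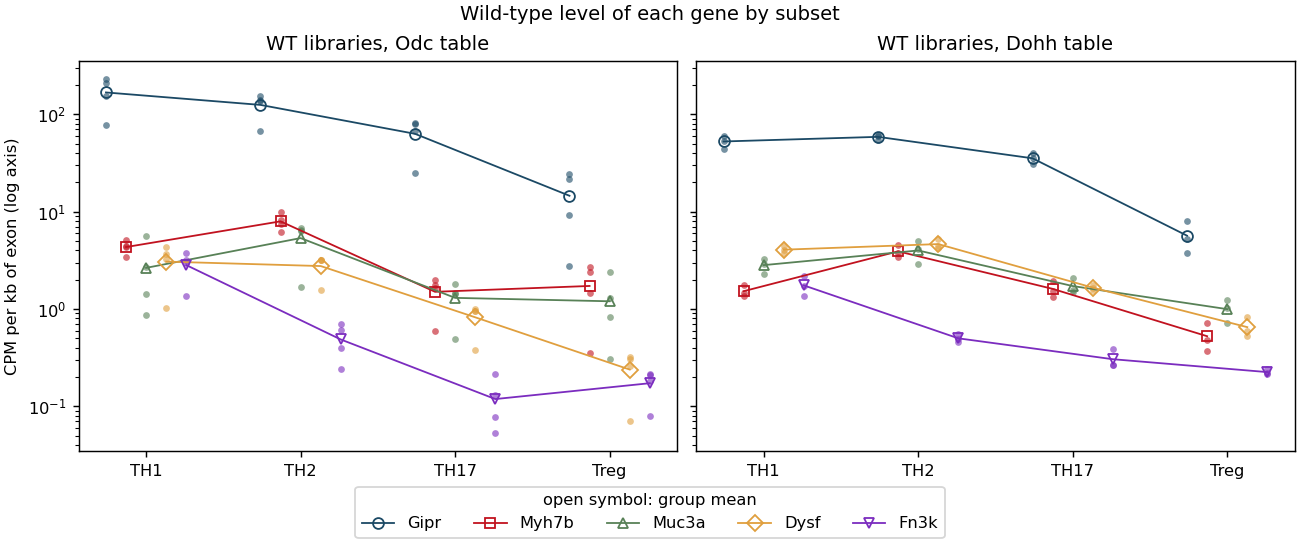
Level of each gene in WT libraries as CPM per kb of exon (log axis) by subset, in the Odc table (left, 4 libraries per subset) and the Dohh table (right, 3 libraries per subset), with a dot for each library and open symbols joined by lines for group means. Gipr lies above the other genes in every subset, Myh7b and Muc3a peak in TH2 cells, Fn3k peaks in TH1 cells, and Gipr and Dysf fall from TH1 and TH2 to TH17 to Treg cells.

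Several libraries stood apart in these genes. WT replicate 4 of the Odc table had the lowest level of its group in 19 of 20 groups (5 genes in 4 subsets), the exception being Fn3k in TH2 cells, and it held 15.0% to 77.2% of the mean of WT replicates 1 to 3. In Treg cells it held 15.0% for Gipr, 16.1% for Myh7b, 20.6% for Muc3a, 23.7% for Dysf and 39% for Fn3k. The other 165 genes called lower in all 8 comparisons were lower in it too, with a median log2 ratio of -0.94 to -0.38 to the other WT replicates, and the 166 genes called higher in all 8 were higher, at 0.35 to 0.65, whereas the median over all tested genes was -0.01 to 0.01. Odc KO replicate 1 had the highest level of its group in 11 of 15 groups. In TH1 cells its median log2 ratio to the other KO replicates was 2.11 over the 5 genes. It was 1.19 over the other genes always lower and -0.74 over the genes always higher. In the same order the ratios were 0.38, 0.61 and -0.63 in TH17 cells and -0.11, 0.24 and -0.09 in Treg cells. In the Dohh KO libraries replicate 1 was the highest in 11 of 20 groups and replicate 3 the lowest in 10 of 20. All 20 decreases of the Odc table were larger without WT replicate 4, for example -6.14 for Gipr, -7.50 for Myh7b, -5.14 for Muc3a, -5.68 for Dysf and -4.25 for Fn3k in Treg cells, where all but Gipr rest on 1 or 2 KO counts. WT replicate 4 of the Odc table was also lowest of its group in Cd4 in every subset (691 against 930 to 963 CPM in TH1, 604 against 718 to 742 CPM in TH2, 441.5 against 699.6 to 769 CPM in TH17 and 506 against 784 to 1032 CPM in Treg cells) and highest in Cd8a in every subset (22.1, 7.14, 27.2 and 29.7 CPM in the same order). Odc KO replicate 1 was highest of its group in Cd4 in each of its 3 subsets (656 against 389.8 to 405 CPM in TH1, 571 against 273 to 340.0 CPM in TH17 and 694 against 407 to 535.5 CPM in Treg cells). It was also highest in Cd8a in TH1 (22.8 against 4.50 to 10.6 CPM) and TH17 cells (43.6 against 25.4 to 41.1 CPM) but not in Treg cells (169.4 against 132 to 204 CPM). In Cd8a it thus did not mirror WT replicate 4, whereas in Cd4 it lay on the opposite side. In the gene sets above, its TH1 and TH17 libraries lay on the opposite side in each set. Its Treg library did so in all but the 5 genes. What set these libraries apart was not tested.

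**Figure D4:**
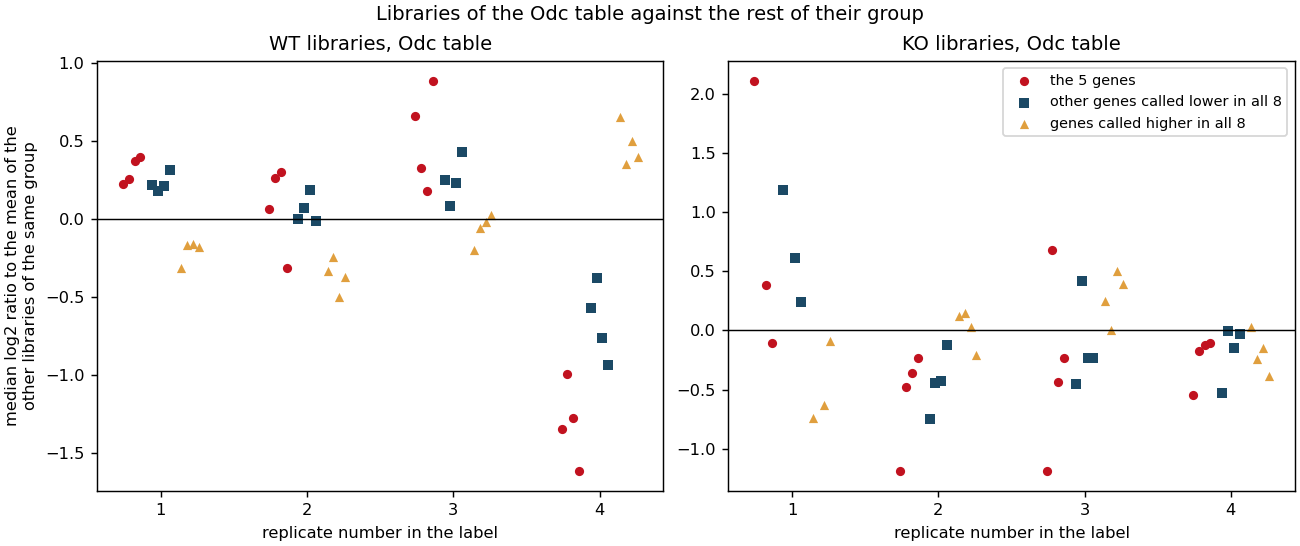
Median log2 ratio of each Odc table library to the mean of the other libraries of its group, over the 5 genes (red circles), the 165 other genes called lower in all 8 comparisons (blue squares) and the 166 genes called higher in all 8 (yellow triangles), with WT libraries on the left and KO libraries on the right and 1 symbol per subset. WT replicate 4 lies at -1.62 to -0.995 for the 5 genes with the genes always higher above 0, and KO replicate 1 of TH1 cells lies at 2.11.

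Within groups, levels of the 5 genes correlated in the Odc libraries, less so without WT replicate 4, and not for all pairs in the Dohh libraries. After the group means were removed, the 10 pairs of genes had correlations of log2 CPM from 0.486 to 0.938 over the 16 Odc WT libraries and from 0.633 to 0.881 over the 15 Odc KO libraries. Without WT replicate 4 they ran from -0.26 to 0.938 over 12 Odc WT libraries, and among Dohh libraries from -0.258 to 0.811 over 12 WT and from -0.121 to 0.827 over 12 KO libraries. Fn3k gave the lowest values, such as 0.00519 with Gipr and -0.26 with Myh7b without Odc WT replicate 4. These values are descriptions, as genes of 1 library share its depth and its cells.

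Transcripts of the sex chromosomes differed between libraries, and the labels give no sex. All 15 Odc KO libraries had the Y-linked Ddx3y at 46.2 to 89.3 CPM and Xist, the RNA of the inactive X, at no more than 0.755 CPM. In the Odc table, WT replicate 2 showed the same pattern (Ddx3y 68.9 to 96.2 CPM, Xist up to 0.517 CPM), WT replicates 3 and 4 had Xist at 952 to 1828 CPM with Ddx3y at no more than 0.148 CPM, and WT replicate 1 had both. The 5 genes were at 42.8% to 244% of the mean of the other WT replicates in WT replicate 2. The part of sex in the levels was not tested. Among Dohh libraries both patterns occurred in both genotypes, and KO replicate 2 carried both transcripts (Xist 66.5 to 166 CPM, Ddx3y 1.58 to 17.0 CPM).

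In a search of the 12185 genes tested in both WT fits, the 3 genes most like each of the 5 were taken by the lower of the 2 correlations of log2 CPM over the 16 and 12 WT libraries. These correlations combine differences between the 4 subsets with those between libraries of a subset, and the 2 parts were not separated. Reep1 (0.976 and 0.968), Npc2 (0.98 and 0.96) and Cd53 (0.951 and 0.991) were most like Gipr. H2-Ab1, an MHC class II gene (0.983 and 0.967), Mapk8ip3 (0.971 and 0.965) and Atg9b (0.962 and 0.965) were most like Myh7b. Paxbp1 (0.909 and 0.92), R3hdm1 (0.904 and 0.908) and Afg3l2 (0.92 and 0.902) were most like Muc3a, and Castor1 (0.975 and 0.99), Padi3 (0.966 and 0.97) and Zcchc24 (0.959 and 0.975) most like Dysf. Prdm1, which encodes Blimp-1 (0.951 and 0.947), Ffar2 (0.94 and 0.974) and Arhgef10l (0.939 and 0.974) were most like Fn3k. None of these 15 genes was called lower in all 8 comparisons, where 1.32% of the genes tested in both tables were. Reep1 and Zcchc24 were called lower in 7 of 8, while Prdm1, Ffar2 and H2-Ab1 were called lower in 0, and the median log2 fold change was 1.1 for Prdm1 and 2.08 for Ffar2. Among the 5 genes themselves, Gipr and Dysf were the closest pair over WT libraries (0.962 and 0.94) and Fn3k and Myh7b among the least alike (0.58 and 0.337).

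The 2 nearest protein-coding genes on each side of each gene were mostly not called. Of 20 neighbours, 17 were tested for Odc and 15 for Dohh, and 10 of 68 comparisons (9 lower, 1 higher) and 13 of 60 (11 lower, 2 higher) were called, against 21.5% and 29.8% of the comparisons over all genes (21.4%, 25.1%, 15.6% and 24.0% in TH1, TH2, TH17 and Treg cells for Odc, and 29.1%, 25.9%, 31.4% and 32.7% for Dohh). Beside Gipr, Eml2, 10.3 kb away, ranged from -0.84 to -0.18 in the 8 comparisons with no call, and Snrpd2, a core spliceosome protein 2.5 kb away, from 0.51 to 1.95 with 1 call, in Dohh TH1 cells. Beside Myh7b, Gss, the glutathione synthetase, had no call, and Acss2, which makes acetyl-CoA from acetate, was called lower in 6 of 8 comparisons, from -2.88 to -0.46. Trpc4ap, whose 3' end overlaps that of Myh7b, was called lower in 2 of 8, from -1.79 to 0.13. Beside Muc3a, Ache, which encodes acetylcholinesterase 75.1 kb away, was called lower in 7 of 8 comparisons, from -3.12 to -0.99. Its nearest neighbour Muc3 held 5 counts in all and was not tested. Beside Dysf, Zfp638 ranged from -0.10 to 0.35 with no call and Exoc6b was called lower in 3 of 8, in Dohh TH1, TH17 and Treg cells. Beside Fn3k, its paralog Fn3krp, 3.6 kb away, ranged from -1.04 to -0.09 with 1 call, in Dohh TH1 cells, and Tbcd, 1.5 kb away, from 0.04 to 0.71 with none. Acss2 and Ache were thus the 2 neighbours called lower in most comparisons.

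**Figure D5:**
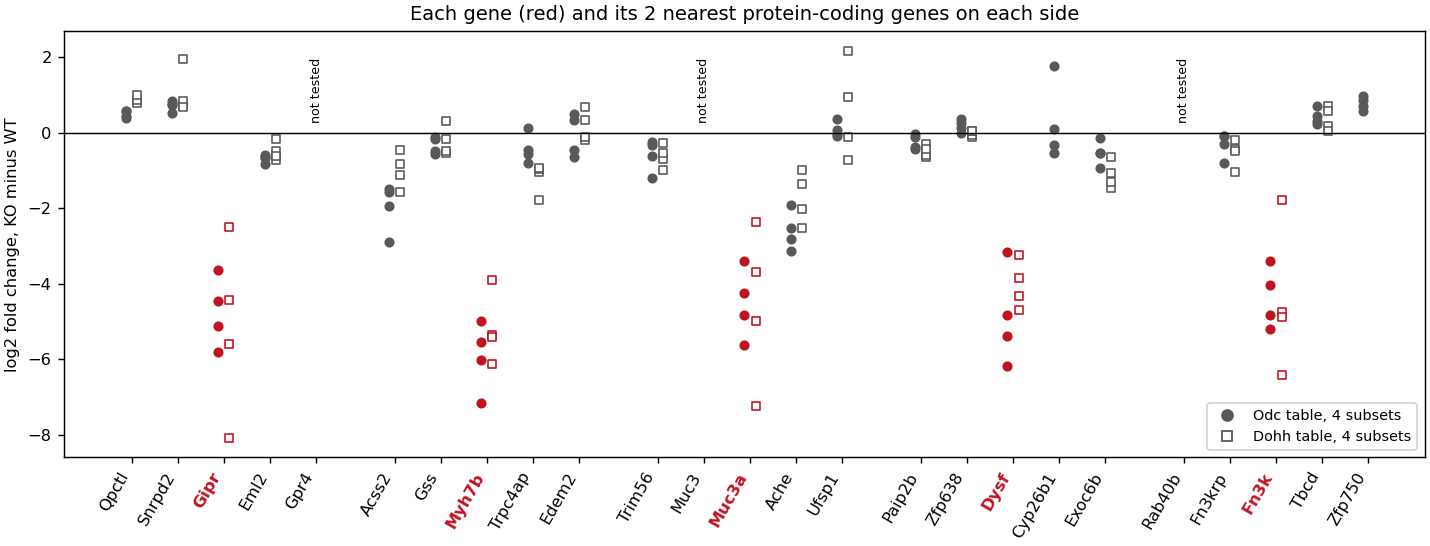
Log2 fold change KO minus WT of the 5 genes (red) and of the 2 nearest protein-coding genes on each side (grey), ordered along the chromosome, in the 4 subsets of the Odc table (filled circles) and of the Dohh table (open squares). Acss2 beside Myh7b, at -2.88 to -0.46, and Ache beside Muc3a, at -3.12 to -0.99, lie lowest among the neighbours, and Gpr4, Muc3 and Rab40b were too low to be tested, as were Cyp26b1 and Zfp750 for Dohh.

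Relatives and partners of the 5 genes were read from 6 lists. Of 17 genes of Gs and cyclic AMP signalling, downstream of Gipr, 2 to 4 were called lower and 0 or 1 higher per Odc comparison, and 2 to 6 lower and 0 or 1 higher per Dohh comparison. Over all genes, 7.21% to 13.6% were called lower for Odc and 11.6% to 15.2% for Dohh, and 8.35% to 13.9% and 14.3% to 17.5% were called higher. The medians were -0.42 to -0.17 and -0.40 to -0.10, beside -0.00 to 0.07 and 0.01 to 0.03 over all genes. Pde4d, a cyclic AMP phosphodiesterase, was called lower in 7 of 8 comparisons (-2.21 to -0.67) and Arrb1, the β-arrestin that turns off receptors, in 6 of 8 (-2.92 to -0.64). The adenylyl cyclases Adcy6 and Adcy9 were called lower in 4 and 3 comparisons, all in the Dohh table. Of 19 class B receptors, their ligands and the RAMP proteins that pair with them, 5 passed the filter on low counts. Ramp1 was called lower in 7 of 8 comparisons (-2.98 to -0.76), Vipr1 in 4, all in the Dohh table, and Ramp3 in 2, as was Calcrl in Dohh TH2 and Treg cells, whereas Vipr2 was called higher in 3. Gip, the gene of the ligand, had 0 counts in all Odc and 1 in all Dohh libraries, and the incretin receptor relative Glp1r had 35 and 83 counts in all. Marker genes of pancreatic islets summed to at most 0.499 CPM in any library.

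Of 13 myosin heavy chain genes related to Myh7b, 5 were tested for Odc and 4 for Dohh. Myh10 was called lower in 4 of 8 comparisons (-2.62 to 0.92) and Myh11 higher in 2 (-2.32 to 2.42), Myh15 was tested in the Odc table alone and called higher in 2 of 4, and Myh3 had no call. Per comparison, 0 or 1 of the tested myosins were called lower and 0 or 1 higher in each table, where 7.21% to 15.2% of all genes were called lower and 8.35% to 17.5% higher. Myh6 and Myh7, the cardiac chains, had 0 and 2 counts in all Odc libraries and 4 and 0 in all Dohh libraries. Of 8 muscle markers, Acta1, Actc1, Mb and Tnni2 were at no more than 3 counts in every WT library of both tables, and the 8 summed to 5.58 to 29.2 CPM in WT and 4.37 to 16.6 CPM in KO libraries. In Treg cells the sum was lower in KO without overlap, at 8.46 to 9.32 against 13.3 to 17.1 CPM for Odc and 8.18 to 11.9 against 21 to 29.2 CPM for Dohh, as it was in Odc TH2 and Dohh TH17 cells. The part of this list in the decreases of Myh7b and Dysf was not tested.

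Of 16 mucins and leukocyte sialomucins, 8 were tested, and 1 to 3 were called lower and 0 to 4 higher per Odc comparison, 0 or 1 lower and 2 to 4 higher per Dohh comparison. Over all genes, 7.21% to 13.6% were called lower and 8.35% to 13.9% higher per Odc comparison, and 11.6% to 15.2% lower and 14.3% to 17.5% higher for Dohh. Muc2, the secreted mucin of goblet cells, was called lower in 7 of 8 comparisons (-4.18 to -1.54), from 2.93 to 48.8 CPM in WT libraries to 0 to 8.28 CPM in KO libraries. Cd34, a sialomucin of progenitor cells, was called higher in 6 (1.94 to 6.40) and Podxl in 4, as was Muc1 in 6 (-1.07 to 3.40), and Muc13 was called lower in 3 and higher in 2. Of 6 intestinal epithelial markers, Fabp2 and Krt20 were at no more than 3 counts in every library, whereas the summed level of the 6 was lower in KO libraries in TH2 cells, where Muc3a was highest, at 21.6 to 46.4 against 222 to 275 CPM for Odc and 59.0 to 123 against 198 to 243 CPM for Dohh, without overlap. It was also lower without overlap in Dohh TH1 and Treg cells. Over the other subsets the sum ran from 15.8 to 106 CPM in WT and from 14.7 to 76.0 CPM in KO libraries, and the part of this list in the decrease of Muc3a was not tested.

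Of 20 ferlins and partners in membrane repair, 14 were tested. Per comparison, 0 to 3 were called lower and 1 or 2 higher for Odc (medians -0.37 to -0.04), and 1 to 3 lower and 1 to 3 higher for Dohh (medians 0.03 to 0.68). The share of all genes called lower was 7.21% to 13.6% for Odc and 11.6% to 15.2% for Dohh. Myof, the ferlin closest to Dysf in name and domains, was called lower in 3 of 8 comparisons (-4.26 to 1.17), and Capn3, a calpain of muscle, in 5 (-4.70 to -0.44). Anxa1, an annexin that binds damaged membranes, rose in all 8 comparisons (1.73 to 6.12), and Cav1 was called higher in 5 (-0.23 to 7.24). Of 18 genes of defence against glycation and of the NRF2 response, 0 were called lower and 1 to 4 higher per Odc comparison, and 0 or 1 lower and 6 to 9 higher per Dohh comparison, with medians of 0.02 to 0.51 and 0.56 to 0.87. Slc7a11, the cystine transporter, rose in all 8 comparisons (1.31 to 6.98), and the NRF2 targets Nqo1, Srxn1 and Hmox1 in 7, 6 and 4. The share of all genes called higher was 8.35% to 13.9% for Odc and 14.3% to 17.5% for Dohh.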

How the data were processed

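CD4+ T cells polarized to 4 subsets from Odc and Dohh mice were profiled by RNA-seq (TruSeq stranded mRNA, biological replicates per the labels). Per the labels, the authors used STAR, featureCounts, DESeq2 and deepTools with the mm10 build; the versions, the annotation release and the strand setting are not given in the sources used here. The deposited values are raw counts per gene, in 1 table for the Odc and 1 for the Dohh libraries, which were normalized and tested separately. CPM used TMM-scaled library sizes. KO and WT were compared with edgeR 4.0.16 (R 4.3.3; filterByExpr, quasi-likelihood test, all 8 groups of a table in the fit, Benjamini-Hochberg adjustment), and a call needed a change over 2-fold at an adjusted p below 0.05. WT subsets were compared in a fit of WT libraries alone, with an F test over 4 subsets and the 6 pairs. Likeness and correlations between libraries used log2(CPM + 0.5). Scripts were tested on simulated counts. Positions came from GENCODE M21 (GRCm38), and sequences from RefSeq.

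Alternatives were other size factors, DESeq2 1.42.0, other filters on low counts, a prior count of 2, fits of other sets of groups, a block for the replicate number and leaving out libraries; leaving out every library of a replicate number was added after seeing the data. Same-numbered WT libraries of the Odc table deviated together in all 24 pairs (correlation 0.206 to 0.576), so these numbers were taken as pairs, while the main fit has no block, as fixed in the design, and the block is given where it changes a call. Same-numbered Dohh WT libraries correlated above 0.1 in 15 of 18 pairs (0.00521 to 0.314) and were not taken as pairs. Xist did follow the number there, at 241 to 519 CPM in WT replicate 1 and at most 0.529 CPM in replicates 2 and 3. With the number as a block, 20 pairs of WT subsets were called for Dohh, as in the main fit. The members and gene lists were chosen with earlier results of these data known. Named genes were the 5 genes, their 2 nearest coding neighbours on each side and the 3 genes most like each in WT libraries. From each list, the 4 tested genes with the largest mean absolute change were named. The rule also took Odc1 and Dohh as checks of the labels, and the genes just outside the choice (Dntt, Dnm1, Upk3bl and Itga7). Outside this rule, and with their values seen, Gip, Calcrl, Muc1, Glp1r, the cardiac myosins, single genes of the marker lists (among them Cd4, Cd3e and Cd8a), Xist, Ddx3y and genes that overlap the 5 were also named.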

Additional observations from a re-analysis of the deposited data

Results flagged for a closer look

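In groups of 4 libraries, all in the Odc table, a library was singled out where its gap to the nearest other library took up most of the range of the group (Dixon's test at 95%). Of 35 groups, 13 held such a library, where chance gives about 1 in 20 for independent groups; these groups share their libraries and held values used to choose the genes, so the number is a description. WT replicate 4 stood below the others for Dysf in TH2 cells at 12.97 CPM and in TH17 cells at 3.14 CPM, and for Muc3a in TH2 cells at 3.21 CPM. The libraries numbered KO replicate 1, which are a different library in each subset, stood above the others for Gipr at 180.3 CPM in TH1, 34.0 CPM in TH17 and 2.64 CPM in Treg cells, for Myh7b at 3.32 CPM in TH1 cells and for Dysf at 1.73 CPM in TH17 cells. In 5 KO groups the library was the only one with any count, namely Dysf in Treg cells at 0.129 CPM (replicate 3), Fn3k in TH17 cells at 0.132 CPM and in Treg cells at 0.1205 CPM (replicate 2 in both), and Muc3a in TH17 cells at 0.133 CPM (replicate 1) and in Treg cells at 0.261 CPM (replicate 4). These last values rest on 1 or 2 counts each, and where the other 3 libraries are at 0 any count is singled out by construction, so the rate of 1 in 20 does not apply to these 5 groups.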

How the results depend on the processing

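No log2 fold change of the 5 genes changed sign under any alternative run. With a mean count of at least 50, fewer genes were tested, Muc3a and Fn3k dropped out, and 3 of the 5 genes were called in each of the 8 comparisons, 3 differed between WT subsets in each table, 13 pairs of WT subsets were called in each table, 40 calls were made among listed genes of the Odc table and 3 genes stayed among the 5 largest decreases. With only the 2 compared groups in the fit, 3 genes were called in Odc TH17 and 2 in Odc Treg cells and 4 in Dohh Treg cells, where the other genes did not pass the filter, and 4 in Dohh TH2 cells, where Gipr was tested at -2.51 (SE 1.02) and not called; the cause was not tested. With all 8 groups in the fit, 18 pairs of WT subsets were called for Odc and 15 for Dohh. Of the 5 largest mean decreases, 2 were of these genes without the need for a call, 3 without every Odc KO replicate 1 and 3 without every Dohh KO replicate 3. Leaving out single libraries, 4 to 5 stayed among the 5 largest, all 5 were called in each comparison, 19 to 21 pairs of WT subsets were called for Odc and 20 for Dohh, calls among neighbours ranged from 10 to 11 and from 13 to 17, and those among listed genes from 63 to 70 and from 91 to 105. With the replicate number as a block, 4 stayed among the 5 largest, 23 pairs of WT subsets were called in the Odc table, listed genes had 70 and 94 calls, and neighbours had 10 and 13; the KO comparisons were not paired by their numbers. Leaving out every library of 1 genotype with the same replicate number, an alternative chosen after seeing the data, 4 to 5 genes were called in Dohh Treg cells (4 without every Dohh WT replicate 1) and all 5 in the other 7 comparisons, 3 to 5 stayed among the 5 largest, 4 to 5 differed between WT subsets for Odc and 5 for Dohh, 15 to 23 and 19 to 20 pairs of WT subsets were called, 60 to 76 and 83 to 105 calls were made among listed genes, and 10 to 12 and 12 to 15 among neighbours. A prior count of 2 moved 19 of 40 log2 fold changes, all 19 to a smaller size, for example Muc3a in Dohh Treg cells, at 0 KO counts, from -7.23 to -3.37, Fn3k in Odc TH17 cells from -3.40 to -1.41 and Dysf in Odc Treg cells from -5.39 to -2.96. Where a KO group held 1 to 3 counts, the size of its decrease is known only within the wide counting intervals given above.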
